A study of Mus musculus with 3 samples.

Results

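Iris pigment epithelium in primary culture (IPE) was compared with the primary cultures of ciliary body pigment epithelium (CBPE) and of retinal pigment epithelium (RPE) from the same study. Genes were chosen when the IPE array gave at least 2-fold more, or at least 2-fold less, signal than both other arrays. Of 18193 genes on the array, 13345 were above the floor, the middle signal of an array, in at least 1 culture, and of these 853 were above both others in IPE (6.39%) and 815 were below both (6.11%). There was 1 array per culture, so no test could be made, and the values that follow have no replicates and no error between cultures.

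The series concerned thrombospondin-1 and how T cells respond to these epithelia. All 3 cultures came from C57BL/6 mice of 6 to 8 weeks, with no transgene or treatment named in the labels. Iris and ciliary body were dissected and loosened with Dispase and DNase I, and the cells of both were grown in RPMI 1640 with 10% fetal bovine serum. The retinal epithelium was released with trypsin from a posterior eyecup without its ciliary body and was grown in DMEM with 20% fetal bovine serum. Serum was withdrawn from all cultures overnight before RNA was taken. Cytokeratin-positive cells made up more than 99% of IPE, and more than 95% of CBPE and RPE after 14 days, while no culture time was given for IPE. The number of mice, their sex and any pooling were not stated. Medium, serum and dissociation cannot be told apart from tissue in the comparison with RPE, and both comparisons share the single IPE array.

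The pigmented epithelia of iris, ciliary body and retina arise from the optic cup and share the enzymes and organelles that make melanin. In the iris the epithelium lies behind the stroma, blocks stray light, and is continuous with the muscle that opens the pupil. The ciliary layer takes part in secreting aqueous humour, and the retinal layer renews photoreceptor outer segments and visual pigment. Pigment epithelial cells in culture can lose pigment and take on mesenchymal features, and dissected eye tissue can carry stroma, vessels and muscle into a culture.

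Against CBPE alone, IPE was at least 2-fold above for 1609 genes (12.1%) and below for 1507 (11.3%). Against RPE alone the counts were 1303 (9.76%) and 1227 (9.19%). The 853 genes above both had a median of 1.33 for the smaller of their 2 log2 differences, and 123 stood 4-fold or more and 14 stood 10-fold or more above both. The 815 below both had a median of -1.33, with 146 lying 4-fold or more and 33 lying 10-fold or more below both. Signals are the deposited intensities, on a linear scale. At the limit itself, Dyrk2 lay just inside with signals of 301.9 in IPE against 150.8 in CBPE and 150.6 in RPE, and Pip4k2c just outside with 283.4 in IPE against 122.9 in CBPE and 141.8 in RPE. On the low side Pkmyt1 lay just inside at 17.4 in IPE against 50.3 in CBPE and 34.8 in RPE, and Rpa3 just outside at 242 in IPE against 674.6 in CBPE and 483.9 in RPE.

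**Figure D1:**
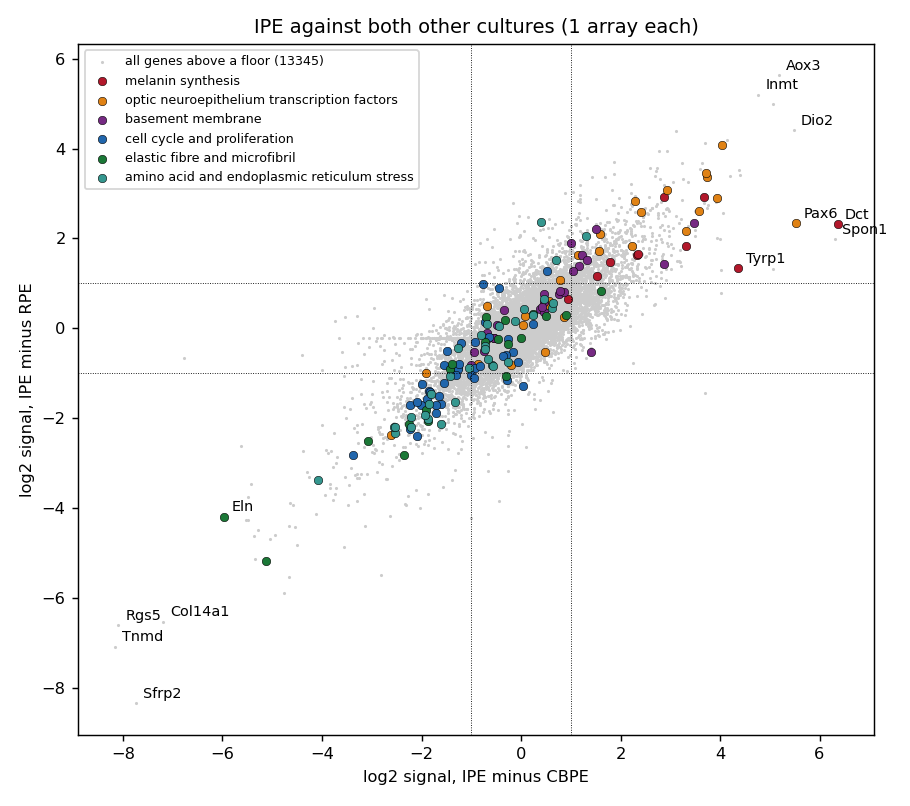
Each point is a gene above the floor on at least 1 array, placed by its log2 signal in IPE minus that in CBPE (horizontal axis) and minus that in RPE (vertical axis), with dotted lines at the 2-fold limits. Colours mark the lists for melanin synthesis, optic neuroepithelium transcription factors, basement membrane, cell cycle, elastic fibre and amino acid stress. The 853 genes above both others lie in the upper right corner and the 815 below both in the lower left. The axes share the IPE array, so part of the alignment follows from that shared value.

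The arrays differed in ways that touch every count. At a common trimmed mean of 100.001, IPE had the dimmest top signal (8440.6, against 19334 for CBPE and 13849 for RPE) and the highest 75th percentile (100.1, against 76.3 and 82.9). Its 3′ to 5′ ratio was also the lowest, 1.503 for Actb against 2.26 and 2.25, and 0.94 for Gapdh against 1.23 and 1.25. Their part in the differences was not tested. The balance of genes above and below moved with the scaling: 51.1% of the genes that differed from both were above as deposited, 72.6% with equal medians over all probe sets, 39.6% after quantile normalization and 24.0% with equal medians over the probe sets above the floor on all 3 arrays. The scaling over all probe sets is called all-set medians below. The last was chosen after seeing the data and is called above-floor medians, and counts under the 3 scalings are given in the order all-set medians, above-floor medians and quantile normalization. The median of all genes was -0.08 against CBPE and -0.09 against RPE as deposited, 0.18 and 0.13 with all-set medians, -0.42 and -0.34 with above-floor medians, and -0.10 and -0.01 after quantile normalization. Counts of lists below are read against these shifts and against the shares over all genes, 6.39% above both and 6.11% below both. A side of a list with no member or a single member is not read as a trait of that list. Of the genes named below as above both, Cgn, Chrd, Col18a1, Dyrk2, Erbb3, Gstm1, Hk2, Igf1r, Itgb1, Lama2, Lamb1, Lamc1, Lgals9, Lmx1b, Myc, Myo5a, Nectin3, Nr2f2, Pdgfra, Pfkfb3, Ptgs2, Rab32, Tcf7l1, Tjp1, Tyr and Vldlr lay inside the limit with above-floor medians. Of those named as below both, Bloc1s3, Col1a2, Cox6c, Cox7a2, Epcam, F11r, Fabp5, Fgf7, Fzd8, Herpud1, Ifi35, Pkmyt1, Prrx2, Rpl19, Rpl35 and Rps24 lay inside it with all-set medians. After quantile normalization Chrd, Dyrk2, Myc, Myo5a, Ptgs2, Rab32 and Tcf7l1 lay inside it among those above, and Bgn, Col1a2, Cox6c, Cox7a2, Fstl1, Ifi35, Lgals1, Pkmyt1, Rpl19, Rpl35 and Rps24 among those below. Across all 3 of these scalings 441 of the 853 genes and 491 of the 815 kept their place.

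Bright genes fell unevenly between the sides. Among 1310 genes that exceeded a signal of 1000 on some array, 65 were above both in IPE (4.96%) and 235 below both (17.94%). Among 4031 genes that peaked between 200 and 1000, 373 were above both (9.25%) and 277 below (6.87%). The bright class held 104 above and 155 below after quantile normalization, and 44 above and 404 below with above-floor medians, so the size of its imbalance moved with the scaling.

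**Figure D2:**
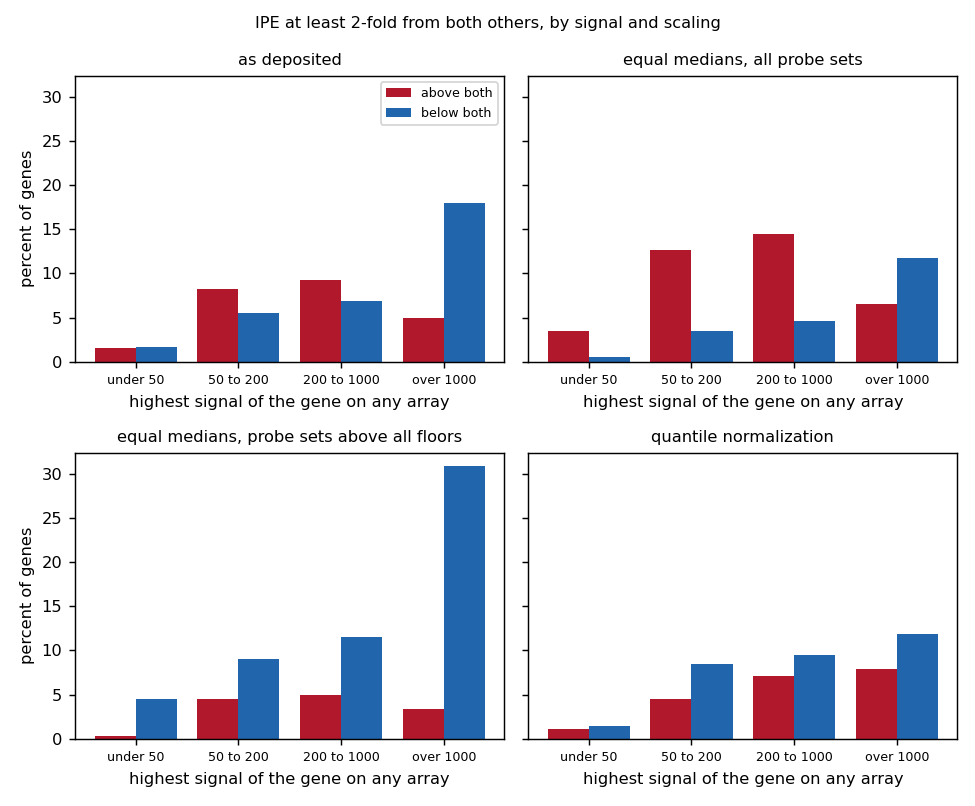
Bars give the percent of genes at least 2-fold above both others (red) and below both others (blue) in IPE, by the highest deposited signal of the gene on any array, in a panel for each scaling. In genes over 1000 the blue bar is the taller in every panel, while in dimmer classes the order of the bars changes with the scaling.

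The 4 markers given for the iris culture were all brightest in IPE, which is a description because they were given with earlier results known. Pax6, a transcription factor on which eye formation depends, was at 897.7 in IPE against 19.4 in CBPE and 177.1 in RPE, the CBPE value lying below 20.2, the top signal of the bacterial probe sets there. Tyrp1, an enzyme of eumelanin synthesis, was at 1388 in IPE against 67.2 in CBPE and 550.0 in RPE. Dio2, the deiodinase that converts thyroxine to active thyroid hormone, was at 3432 in IPE against 76.8 in CBPE and 161.1 in RPE. Inmt, an N-methyltransferase of indolamines, was at 5483 in IPE against 200.8 in CBPE and 149.2 in RPE. Both Pax6 and Tyrp1 put RPE between the others, while Inmt put CBPE between.

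Keratin signals measure RNA of a whole culture, while the cytokeratin shares are lower bounds on the percent of positive cells. The signals therefore do not test those shares. Krt18, a keratin of simple epithelia, was at 144.1 in IPE against 422.4 in CBPE and 218.6 in RPE. Its partner Krt8 was at 17.4 in IPE against 95.3 in CBPE and 26.2 in RPE, so that IPE was the dimmest culture for both. Krt19, another keratin of simple epithelia, had its highest signal in IPE, 39.9 in IPE against 25.8 in CBPE and under the floor in RPE. Vim, the intermediate filament of mesenchymal and cultured cells, was at 6643 in IPE against 12214 in CBPE and 8515 in RPE. Of 16 measured keratins and other intermediate filaments, the muscle filament gene Des was above both others in IPE at 91.3 in IPE against 28.5 in CBPE and 32.4 in RPE by 1 of its 2 probe sets, and Lmna, which encodes the nuclear lamins A and C, below both at 276.7 in IPE against 1385 in CBPE and 1126 in RPE.

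Pigment genes were the list with the largest share above both cultures: 9 of 11 measured melanin synthesis genes, none below, against 6.39% of all genes. Their median log2 difference was 2.34 against CBPE and 1.64 against RPE, where all genes had -0.08 and -0.09. The count was 9 with all-set medians, 8 with above-floor medians and 9 after quantile normalization. Tyr, tyrosinase, which catalyses the first steps of melanin synthesis, had the smallest excess, at 1114 in IPE against 384.4 in CBPE and 493.3 in RPE, or 2.90-fold and 2.26-fold, and it alone of the 9 dropped out under above-floor medians. Dct, dopachrome tautomerase, was at 1429 in IPE, under the floor in CBPE and 286.5 in RPE, so IPE stood at least 70.7-fold above CBPE and 4.99-fold above RPE. The ordering IPE, RPE, CBPE held for Tyr, Tyrp1 and Dct alike. Mlana, a melanosome maturation protein, was at 314.9 in IPE against 31.4 in CBPE and 88.7 in RPE. Pmel, which forms the fibrils on which melanin is laid down, was at 86.7 in IPE, under the floor in CBPE and 27.9 in RPE. Oca2, a melanosomal anion channel, was at 127.5 in IPE and under the floor in CBPE and RPE. Trpm1, a cation channel gene read by Mitf, was at 221.9 in IPE, under the floor in CBPE and 29.2 in RPE. The melanosomal glycoprotein gene Gpnmb, bright everywhere, was at 3924 in IPE against 1143 in CBPE and 1408 in RPE. Mitf itself, the transcription factor that drives these genes, was at 321.1 in IPE against 63.3 in CBPE and 102 in RPE, 5.07-fold and 3.15-fold. Atp7a, the copper pump that loads tyrosinase, was within 2-fold at 273.5 in IPE against 141.2 in CBPE and 174.3 in RPE. Slc45a2, a melanosomal transporter, was under the floor in IPE, 21.2 in CBPE and under the floor in RPE.

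Melanosome biogenesis and transport genes differed less. Of 23 measured, 5 were above both others and 1 below, with medians of 0.60 and 0.33, and with above-floor medians 2 were above. Rab27a, which tethers melanosomes to the actin cortex, was at 113.2 in IPE, under the floor in CBPE and 38.7 in RPE. Myo5a, the myosin motor it recruits, was at 204.7 in IPE against 90.2 in CBPE and 93.1 in RPE. Rab32, which delivers cargo to melanosomes, was at 302.8 in IPE against 135.4 in CBPE and 127.8 in RPE. Lyst, mutated in Chediak-Higashi syndrome, was at 294.8 in IPE against 86.4 in CBPE and 92.8 in RPE. Bloc1s3, a subunit of a sorting complex, was the member below both, at 32.4 in IPE against 66.6 in CBPE and 73.3 in RPE. Markers of melanocytes and Schwann cells share Mitf and Mlana with the pigment list. Of 13 measured, 4 were above both, 3, 4 and 8 were under the floor in IPE, CBPE and RPE, and their summed signal was 2585.7 in IPE against 2338.3 in CBPE and 3037 in RPE. Of their defining markers, the factor gene Sox10 was at 25.7 in IPE and under the floor in CBPE and RPE. The receptor gene Kit was under the floor in IPE, 36.6 in CBPE and under the floor in RPE. The other members above both were the neurotrophin receptor gene Ngfr, at 101 in IPE against 23.2 in CBPE and under the floor in RPE, and the neuregulin receptor gene Erbb3, at 40.7 in IPE and under the floor in CBPE and RPE. With the mean of all probe sets Mlana alone of these 4 remained above both. The part of such cells was not tested.

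Since pigment genes stood above both together, their starts of transcription were searched for CATGTG, the core of the M-box that MITF can bind, on both strands of RefSeq windows of GRCm38.p6 that run from 250 bases before to 50 after a start. Of the 9 genes, 7 had a window, and 5 of these held the letters, as did 15.9% of 27025 genes with a window. With a leading T, TCATGTG was found in 4 of the 7 and in 4.3% of genes. The windows of the 3 melanin enzymes are printed to show where the letters lie, with the matches in capitals. The match of Tyr began 21 bases before the start (chr7:87493463-87493762, minus strand), that of Tyrp1 began 46 before (chr4:80833963-80834262, plus strand), and Dct held 2, the farther 232 before (chr14:118052197-118052496, minus strand). Mitf is known to drive genes of this list, so matches were likely in advance, and the count is no result of these arrays. A match is a description of the letters and not a measured site.
Tyr: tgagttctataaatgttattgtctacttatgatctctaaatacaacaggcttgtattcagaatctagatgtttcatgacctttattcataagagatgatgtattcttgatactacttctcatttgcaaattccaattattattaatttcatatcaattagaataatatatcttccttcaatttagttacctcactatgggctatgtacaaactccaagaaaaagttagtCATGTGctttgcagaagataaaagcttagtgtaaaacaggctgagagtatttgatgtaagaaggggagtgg
Tyrp1: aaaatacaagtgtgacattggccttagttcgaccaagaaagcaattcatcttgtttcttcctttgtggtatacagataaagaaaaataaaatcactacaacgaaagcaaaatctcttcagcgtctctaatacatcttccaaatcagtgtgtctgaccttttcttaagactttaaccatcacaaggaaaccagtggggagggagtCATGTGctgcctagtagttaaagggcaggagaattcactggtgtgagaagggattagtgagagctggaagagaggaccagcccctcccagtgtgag
Dct: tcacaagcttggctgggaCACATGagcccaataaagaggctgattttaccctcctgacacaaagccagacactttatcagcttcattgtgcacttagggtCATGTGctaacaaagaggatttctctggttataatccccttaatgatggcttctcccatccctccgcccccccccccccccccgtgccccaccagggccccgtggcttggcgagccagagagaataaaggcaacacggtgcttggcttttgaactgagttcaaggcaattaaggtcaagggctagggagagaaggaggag

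**Figure D3:**
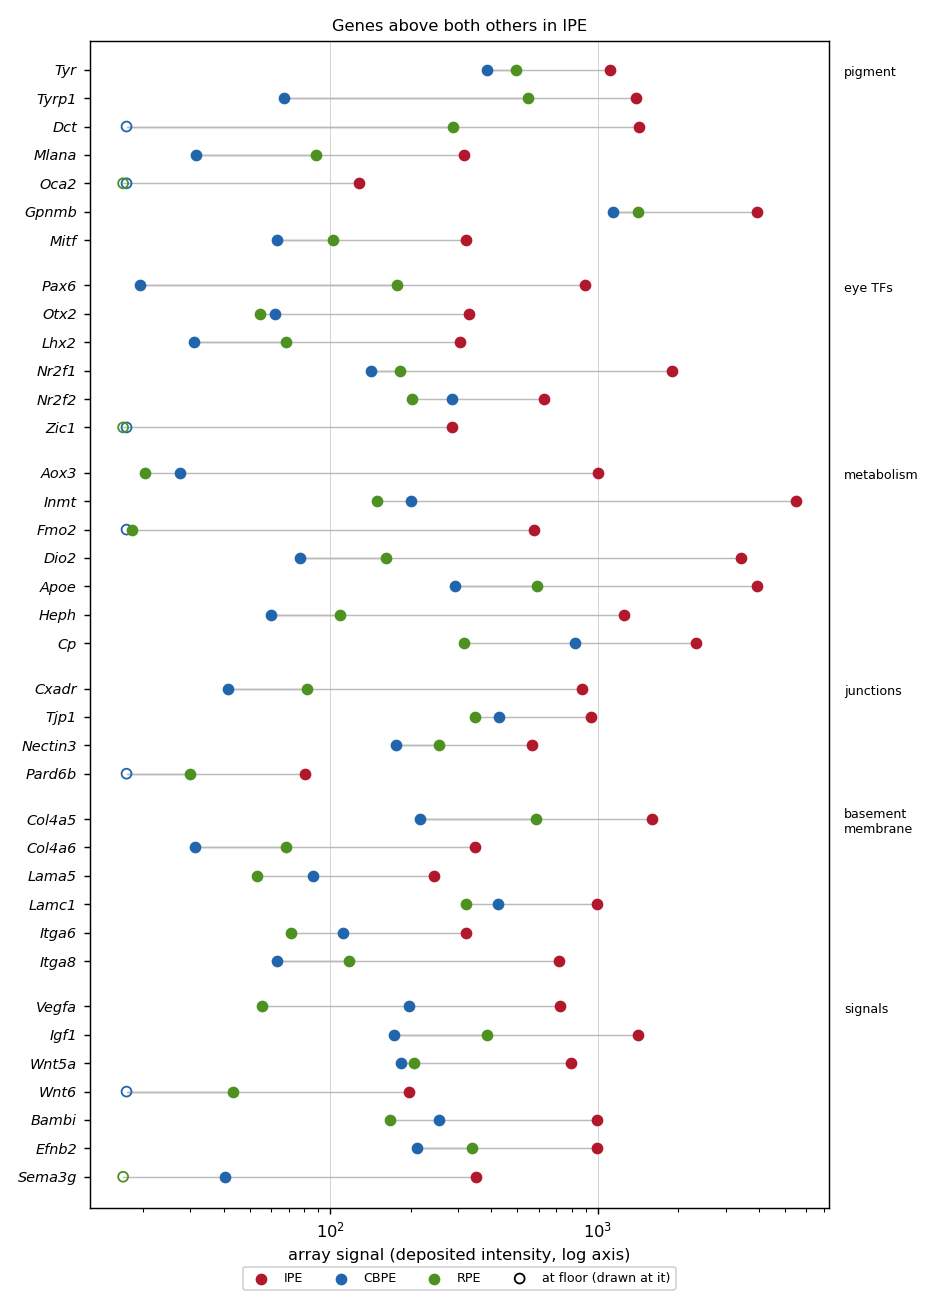
Signals of 37 genes that were above both others in IPE, on a log axis, with a point per culture joined by a line, grouped by function. Open circles are signals under the floor, drawn at it. Red IPE points lie to the right of both others in every row, and the order of CBPE and RPE changes from gene to gene.

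Transcription factors of the optic neuroepithelium were also often above both. Of 27 measured, 14 were above both cultures in IPE and 1 below, with medians of 1.14 and 1.64. The counts above were 15, 13 and 14 under all-set medians, above-floor medians and quantile normalization. With the mean of all probe sets 10 were above both, with medians of 0.78 and 0.90, and with a fixed floor of 100 11 of 16 measured. Otx2, which specifies pigment epithelium, was at 329.6 in IPE against 61.9 in CBPE and 54.4 in RPE. Its relative Otx1 was at 206.2 in IPE, under the floor in CBPE and 33.9 in RPE. Lhx2, needed for the optic cup to form, was at 305.8 in IPE against 30.8 in CBPE and 68.3 in RPE, 9.93-fold and 4.48-fold. Nr2f1, a nuclear receptor that patterns the optic vesicle, was at 1894 in IPE against 142.4 in CBPE and 182.7 in RPE, 13.3-fold and 10.4-fold. Its relative Nr2f2 was at 628.5 in IPE against 284.4 in CBPE and 202.3 in RPE, a smaller excess. Zic1, a zinc finger factor, was at 285.2 in IPE and under the floor in CBPE and RPE. The T-box gene Tbx2 was at 209.2 in IPE against 27.2 in CBPE and 24.8 in RPE. Its neighbour in the family, Tbx3, was at 94.3 in IPE against 31.3 in CBPE and 22.1 in RPE. Meis1, a cofactor that acts upstream of Pax6, was at 119.3 in IPE against 24.3 in CBPE and under the floor in RPE. Meis2, with a like role, was at 144.5 in IPE against 30.7 in CBPE and 40.5 in RPE. With the mean of all probe sets Nr2f2, Tbx3, Meis1 and Meis2 were no longer above both. Mab21l2, required for eye growth, was at 266.6 in IPE, under the floor in CBPE and 35.6 in RPE. Irx5, an Iroquois factor, ran the other way and was under the floor in IPE but 88.8 in CBPE and 75.7 in RPE.

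Periocular mesenchyme factors, which mark the neural crest and mesoderm around the eye, leaned low. Of 31 measured, 9 were below both and 4 above, with medians of -0.34 and -0.84, and the counts below were 8, 12 and 9 under the 3 scalings but 1 with a fixed floor of 100. Foxc2, a forkhead factor of the anterior segment, was at 17.8 in IPE against 342.3 in CBPE and 176.6 in RPE, 19.2-fold and 9.92-fold below. Foxf2, another forkhead factor of mesenchyme, was at 55.6 in IPE against 358.9 in CBPE and 145.5 in RPE. The mesenchymal factor gene Twist1 was at 90.2 in IPE against 337 in CBPE and 209.8 in RPE. Prrx2, a homeobox gene of mesenchyme, was at 85.7 in IPE against 196.4 in CBPE and 341.6 in RPE. Also close to the floor in IPE was the homeobox gene Six2, at 18.4 in IPE against 210.7 in CBPE and 73.5 in RPE. The T-box gene Tbx18 was likewise close to it, at 17.6 in IPE against 119.2 in CBPE and 71.4 in RPE. Tfap2b, a neural crest factor also needed in the anterior eye, was an exception at 1096 in IPE against 71.7 in CBPE and 274 in RPE, 15.3-fold and 4.0-fold above. So was Lmx1b, mutated in nail-patella syndrome, at 408.9 in IPE against 165.6 in CBPE and 110.1 in RPE, although its 2 probe sets disagreed in direction. Of 31 HOX genes, which mark trunk position, 8 were measured, none was at least 2-fold from both others, and the brightest value in IPE was 31.8, for Hoxa5.

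Enzymes of small-molecule oxidation held several of the largest differences. Aox3, an aldehyde oxidase, was at 1000 in IPE against 27.5 in CBPE and 20.2 in RPE, 36.4-fold and 49.5-fold above, and Fmo2, a flavin monooxygenase, at 578.7 in IPE, under the floor in CBPE and 18.2 in RPE, with 4 of 4 probe sets in the same direction. Of 23 measured xenobiotic oxidases and methyltransferases these and Inmt were above both, while Aldh3a1, a corneal aldehyde dehydrogenase, was under the floor in IPE but 37.7 in CBPE and 149.9 in RPE, below both. All other members were within 2-fold of at least 1 culture. Among 8 measured genes of thyroid hormone action, Dio2 was joined by Klf9, a transcription factor that thyroid hormone induces, at 1524 in IPE against 479 in CBPE and 386.8 in RPE. Crym, a cytosolic thyroid hormone binding protein, was under the floor in IPE but 233.2 in CBPE and 64.4 in RPE, below both. Abcb1a, the drug efflux pump P-glycoprotein, was at 202.8 in IPE against 19.8 in CBPE and 21.3 in RPE. The hydrolase gene Cmbl was at 583 in IPE against 31.7 in CBPE and 55.8 in RPE.

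Antioxidant genes lay on both sides. Of 30 measured, 3 were above both and 5 below. Txnrd1, thioredoxin reductase, was at 1872 in IPE against 731.9 in CBPE and 581.9 in RPE. Gclc, the rate-limiting enzyme of glutathione synthesis, was at 527.8 in IPE against 120.8 in CBPE and 165.9 in RPE. Sod1, the cytosolic superoxide dismutase, was below both at 890.5 in IPE against 4008 in CBPE and 4252 in RPE, though 2 of its 4 probe sets did not share that direction. Gpx7, a peroxidase of the endoplasmic reticulum, was at 199 in IPE against 1035 in CBPE and 1252 in RPE. Glutathione transferases went opposite ways. Gstm1 was at 1428 in IPE against 480.5 in CBPE and 646.1 in RPE. Gstm5 was at 970.6 in IPE against 3683 in CBPE and 3317 in RPE, and the probe sets of this family may share transcripts.

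Lipid and metal carriers were among the brightest genes above both. Apoe, the lipoprotein that carries cholesterol between cells, was at 3950.2 in IPE against 292.4 in CBPE and 591.3 in RPE, 13.5-fold and 6.68-fold. Abca1, which exports cholesterol to such particles, was at 1234 in IPE against 176.3 in CBPE and 310.1 in RPE, with 3 of 3 probe sets at least 2-fold above both. The lipoprotein receptor gene Vldlr was at 246.7 in IPE against 100.1 in CBPE and 59.3 in RPE. The endocytic receptor gene Lrp2 was at 50.9 in IPE and under the floor in CBPE and RPE. Pparg, the adipogenic nuclear receptor, was under the floor in IPE but 61.4 in CBPE and 74.3 in RPE. Fabp5, a fatty acid binding protein, was at 407.1 in IPE against 828.4 in CBPE and 859.6 in RPE. Of 24 measured in that list 4 were above and 2 below. Heph, a ferroxidase that helps load iron onto transferrin, was at 1252 in IPE against 59.9 in CBPE and 109 in RPE. Cp, ceruloplasmin, with the same activity, was at 2325 in IPE against 823.1 in CBPE and 315.7 in RPE, and all 7 of its probe sets were at least 2-fold above both. Tfrc, the transferrin receptor, was at 397 in IPE against 142.6 in CBPE and 146.2 in RPE. Of 23 measured iron and copper genes these 3 were above both and none below, where all genes had 6.39% above and 6.11% below.

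Visual cycle genes showed little. Of 16 measured, Rlbp1, which binds retinaldehyde, was above both at 84.0 in IPE, under the floor in CBPE and 17.3 in RPE. Ptgds, prostaglandin D2 synthase, was at 3595 in IPE against 107.3 in CBPE and 1437 in RPE. In the retinoic acid list Rarb, a receptor that is also a target of retinoic acid, was above both at 678.2 in IPE against 227 in CBPE and 189.7 in RPE, and Rarres1, another retinoid-responsive gene, below both at 21.4 in IPE against 963.3 in CBPE and 414.8 in RPE. Apoe, Glul, Dkk3 and Rlbp1 also stand in the list of glial markers, where 4 of 14 measured were above both and none below. Glul, glutamine synthetase, was at 2558 in IPE against 309.6 in CBPE and 743.2 in RPE. The summed glial signal was 14598 in IPE against 13408 in CBPE and 10477 in RPE, with 3, 5 and 4 of the 14 under the floor. The defining marker Gfap was at 17.1 in IPE and under the floor in CBPE and RPE. S100b was at 35.9 in IPE against 27.4 in CBPE and 30.6 in RPE, dim and within 2-fold on all 3 arrays, and the part of glial cells was not tested.

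Junction genes were more often above than below. Of 35 measured, 7 were above both and 2 below, with medians of 0.53 and 0.62, and the counts above were 8, 3 and 8 under the 3 scalings. Cxadr, a receptor of tight junctions that adenoviruses use, was at 871.2 in IPE against 41.3 in CBPE and 81.8 in RPE, 21.1-fold and 10.7-fold, with 4 of 4 probe sets at least 2-fold above both. Tjp1, the tight junction scaffold ZO-1, was at 938.8 in IPE against 426.2 in CBPE and 345.8 in RPE. Nectin3, which links the apices of pigmented and non-pigmented ciliary layers, was at 566.2 in IPE against 175.6 in CBPE and 255.4 in RPE. Pard6b, a polarity protein, was at 80.7 in IPE, under the floor in CBPE and 29.8 in RPE. Cgn, cingulin, was at 39.2 in IPE and under the floor in CBPE and RPE. Below both was F11r, a junctional adhesion molecule, at 51.2 in IPE against 313.5 in CBPE and 109.5 in RPE. Epcam, an adhesion molecule of epithelia, was also below both, at 24.0 in IPE against 73.9 in CBPE and 49.6 in RPE.

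Basement membrane genes pointed the same way. Of 25 measured, 7 were above both and none below, with medians of 0.46 and 0.57, and the counts above were 10, 3 and 9 under the 3 scalings. Col4a5, a chain of type IV collagen, was at 1588 in IPE against 215.9 in CBPE and 586.4 in RPE, 7.35-fold and 2.71-fold. Its partner chain Col4a6 was at 346.6 in IPE against 31.1 in CBPE and 68.3 in RPE, 11.1-fold and 5.07-fold. Both chains thus put CBPE lowest. The laminin alpha chain gene Lama5 was at 244.1 in IPE against 86.2 in CBPE and 53.1 in RPE. Lama2, the alpha chain of muscle laminin, was at 488.3 in IPE against 216.7 in CBPE and 185.4 in RPE. Lamb1, a beta chain, was at 1838 in IPE against 887.6 in CBPE and 756.1 in RPE. Lamc1, the gamma chain most laminins share, was at 990.8 in IPE against 421.7 in CBPE and 322.1 in RPE. RPE was the lowest of the cultures for these 4 laminin genes. Agrn, agrin, a proteoglycan, was just outside the limit at 887.6 in IPE against 444 in CBPE and 239.7 in RPE. Of 15 measured integrins 4 were above both and none below, and with above-floor medians 2 were above. Itga6, a laminin receptor chain, was at 320.8 in IPE against 111.3 in CBPE and 71.4 in RPE. Itga8, a nephronectin receptor chain, was at 716.3 in IPE against 63.1 in CBPE and 117 in RPE. Their partner Itgb1 was at 1959 in IPE against 926.2 in CBPE and 907.1 in RPE.

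Secreted growth factors above both included several that act on vessels and on the eye. Vegfa, the vascular endothelial growth factor, was at 720.4 in IPE against 196.5 in CBPE and 55.4 in RPE, 3.67-fold and 13.0-fold, whereas Vegfd, a lymphatic relative, was below both at 43.3 in IPE against 186.4 in CBPE and 520.9 in RPE. Serpinf1, the antiangiogenic factor PEDF, was bright and below both, at 1639.6 in IPE against 6058 in CBPE and 5332 in RPE. Ang, angiogenin, was at 105.9 in IPE against 703.4 in CBPE and 568.4 in RPE. Col18a1, whose fragment is endostatin, was above both at 729.5 in IPE against 325.4 in CBPE and 123.3 in RPE. The list of 25 measured angiogenic factors and inhibitors thus had 3 above both and 4 below. Of 25 measured genes in the hypoxia and glycolysis list, which low oxygen is known to induce together with Vegfa, 3 were above both, and the counts were 5, 1 and 5 under the 3 scalings. Hk2, a hexokinase, was at 598.5 in IPE against 269.9 in CBPE and 83.9 in RPE. Pfkfb3, which speeds glycolysis, was at 673 in IPE against 327.5 in CBPE and 82.1 in RPE. Aldoc, an aldolase, was at 615.5 in IPE against 195.5 in CBPE and 193.3 in RPE. Against RPE alone 11 of the 25 were at least 2-fold above, and against CBPE 3 were above and 7 below.

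The insulin-like growth factor system had 4 of 17 measured above both and 2 below, but 1 above with the mean of all probe sets, which left Pappa and not Igf1, Igf2 or Igf1r. The ligand gene Igf1 was at 1409 in IPE against 173.6 in CBPE and 386.5 in RPE. Igf2, the fetal ligand, was at 834.6 in IPE against 280.7 in CBPE and 258.1 in RPE. Pappa, a protease that frees these ligands from binding proteins, was at 282.2 in IPE against 30.5 in CBPE and 51.9 in RPE, and its relative Pappa2 was under the floor in IPE but 41.4 in CBPE and 36.4 in RPE. The receptor gene Igf1r was at 779.4 in IPE against 325.2 in CBPE and 234.4 in RPE by the probe set that stood for it, but 2 of its 4 probe sets did not share the direction, and its log2 difference against CBPE was -0.06 when all probe sets were averaged. Igfbp6, a binding protein with preference for IGF2, was below both at 290.7 in IPE against 1064 in CBPE and 1749 in RPE.

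Ligands of the TGF-beta and BMP family were mixed, with 4 of 25 measured above both and 2 below. Tgfb2, the ligand most abundant in aqueous humour, was at 622.6 in IPE against 192.4 in CBPE and 179.1 in RPE. Bmp7, needed for eye induction, was at 107.9 in IPE and under the floor in CBPE and RPE. The BMP antagonist gene Chrd was at 68.1 in IPE against 31.1 in CBPE and 28.7 in RPE. Grem1, another antagonist, was at 78.9 in IPE, under the floor in CBPE and 22.4 in RPE. Below both was the BMP-binding protein gene Bmper, at 32.3 in IPE against 124.7 in CBPE and 191.1 in RPE. Fstl1, a bright follistatin-like gene, was also below both, at 3122 in IPE against 8068 in CBPE and 7242 in RPE. Of 24 measured receptors and SMADs 2 were above both and none below, against 6, 2 and 4 above under the 3 scalings. Over all genes 6.39% were above both as deposited, which is near the count of this list. Tgfbr1, a type I receptor, was at 651 in IPE against 197.6 in CBPE and 250.9 in RPE. Bambi, a decoy receptor, was at 993.6 in IPE against 255.8 in CBPE and 167.2 in RPE. Tgfbr2, the type II partner, had nearly equal signals of 1317 in IPE against 1316 in CBPE and 1256 in RPE as deposited. By this probe set, which culture was higher changed with the scaling, IPE with all-set medians and CBPE with above-floor medians. Its other usable probe set, a dimmer 1, was at least 2-fold above both, at 69.4 in IPE against 18.1 in CBPE and 31.0 in RPE.

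Wnt genes had 7 of 32 measured above both and 3 below, with medians of 0.49 and 0.64, and the counts above were 11, 5 and 6 under the 3 scalings. Wnt5a, a ligand of the noncanonical branch, was at 790.3 in IPE against 184.2 in CBPE and 206.1 in RPE, with 3 of 3 probe sets at least 2-fold above both, and Wnt6 at 196.1 in IPE, under the floor in CBPE and 43.1 in RPE. Axin2, a feedback target of beta-catenin, was at 113.2 in IPE against 31.2 in CBPE and under the floor in RPE. Rspo1, which strengthens Wnt signals, was at 157.1 in IPE against 39.2 in CBPE and 38.0 in RPE. Of the DNA-binding partners of beta-catenin, Tcf7l1 was above both at 228.8 in IPE against 76.7 in CBPE and 99.4 in RPE. Tcf7l2 was below both at 43.0 in IPE against 159.4 in CBPE and 184.3 in RPE. The receptor gene Fzd5 was below both, at 66.7 in IPE against 338.1 in CBPE and 293.4 in RPE, and so was Fzd8, at 113.1 in IPE against 345 in CBPE and 235.8 in RPE. Among 10 measured secreted antagonists, Dkk3 was above both at 1145 in IPE against 224.5 in CBPE and 426.4 in RPE, and Sfrp2 was below both at 17.1 in IPE against 3648 in CBPE and 5578 in RPE. Its fold rests on an IPE signal close to the floor of 14.5.

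Guidance cues and their receptors had 10 of 41 measured above both and 2 below, with medians of 0.45 and 0.52, and the counts above were 12, 8 and 9 under the 3 scalings. Class 3 semaphorins, secreted repellents of axons and vessels, gave 3 of these. Sema3g was at 350.6 in IPE against 40.5 in CBPE and under the floor in RPE. Sema3f was at 296.4 in IPE against 101.7 in CBPE and 118.7 in RPE. Sema3e was at 188.1 in IPE against 35.7 in CBPE and 37.1 in RPE, and the other cultures were close to each other for both Sema3e and Sema3f. Plxna2, a semaphorin receptor of the plexin family, was at 356.6 in IPE against 123.4 in CBPE and 135.2 in RPE. Ntn1, netrin-1, was at 347.5 in IPE against 89.7 in CBPE and 65.5 in RPE, with 1 of its 2 probe sets in that direction, and Efnb2, an ephrin of arteries, at 991 in IPE against 210.5 in CBPE and 338.5 in RPE. The repellent gene Slit3 was under the floor in IPE but 69.2 in CBPE and 57.0 in RPE, below both. The ephrin receptor gene Epha3 was under the floor in IPE but 43.0 in CBPE and 168.2 in RPE, below both.

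Other receptors and channels followed. Fgfr3, a fibroblast growth factor receptor, was at 324.8 in IPE against 41.9 in CBPE and 51.6 in RPE, and the ligand Fgf7, a stromal product that acts on epithelia, was below both at 187.4 in IPE against 398.2 in CBPE and 515.4 in RPE. Dner, a neural Notch ligand, was the 1 of 20 measured Notch genes above both, at 229.5 in IPE against 31.8 in CBPE and 38.5 in RPE. That count is near the 6.39% of all genes. Of 23 measured ion and water transport genes 3 were above both. Atp1b2, a sodium pump subunit, was at 195.1 in IPE against 27.5 in CBPE and 39.5 in RPE. Slc4a4, a sodium bicarbonate cotransporter, was at 396.4 in IPE against 88.4 in CBPE and 102.1 in RPE. Slc4a5, of the same family, was at 93.6 in IPE, under the floor in CBPE and 24.4 in RPE. Kcnma1, a large-conductance potassium channel, was under the floor in IPE but 65.4 in CBPE and 37.1 in RPE, below both.

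**Figure D4:**
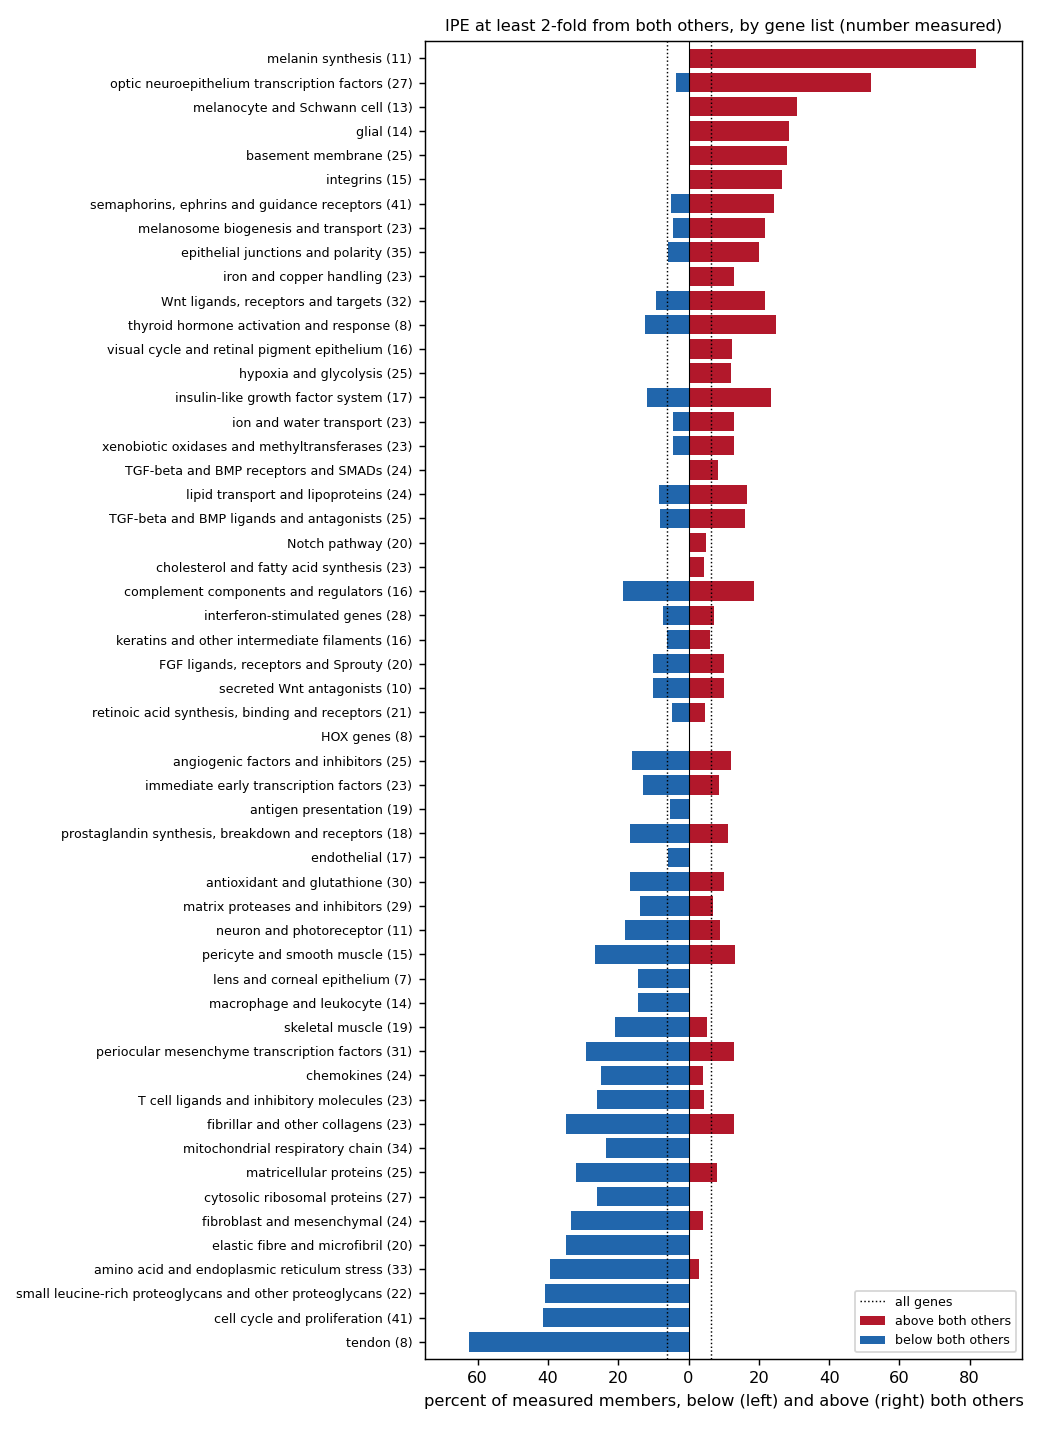
For each gene list, with its number of measured members, bars give the percent of members at least 2-fold above both others (right, red) and below both others (left, blue) in IPE. Dotted lines mark 6.39% and 6.11%, the shares over all genes. Melanin synthesis and optic neuroepithelium factors extend farthest right, and tendon, cell cycle and proteoglycan genes farthest left.

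Matrix genes of connective tissue made up many of the largest differences below both. Of 23 measured fibrillar and other collagens, 8 were below both and 3 above, with medians of -1.13 and -0.69. Col14a1, a collagen on the surface of fibrils, was at 20.4 in IPE against 2979.9 in CBPE and 1887 in RPE, 146-fold and 92.5-fold below, with an IPE signal close to the floor. Col6a1, a chain of type VI collagen, was at 665.7 in IPE against 2430.2 in CBPE and 2258 in RPE. Col6a2, the second chain, was at 373.7 in IPE against 2703 in CBPE and 1856 in RPE. Col6a3, the third, was at 366.6 in IPE against 1786 in CBPE and 1182 in RPE. All 3 were lowest in IPE and highest in CBPE. Col1a2, a chain of type I collagen, was at 4828 in IPE against 12392 in CBPE and 10181 in RPE, and stayed past the limit under neither all-set medians nor quantile normalization. The short-chain collagen gene Col8a2 was at 513.3 in IPE against 1654 in CBPE and 1470.0 in RPE.

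Elastic fibre genes had 7 of 20 measured below both and none above, with medians of -0.72 and -0.58. Eln, elastin, was at 46.0 in IPE against 2884 in CBPE and 840.9 in RPE, 62.7-fold and 18.3-fold below. Mfap5, a microfibril protein, was at 50.4 in IPE against 1755 in CBPE and 1829.6 in RPE. Fbln5, which assembles elastin onto microfibrils, was at 852.9 in IPE against 4076 in CBPE and 3752 in RPE. Fbn2, fibrillin-2, was at 145 in IPE against 547.5 in CBPE and 512.7 in RPE. Ltbp2, which binds fibrillin, was at 248 in IPE against 2089.7 in CBPE and 1401 in RPE. Small leucine-rich and other proteoglycans had 9 of 22 measured below both and none above. Fmod, fibromodulin, was at 179.7 in IPE against 4068 in CBPE and 5075 in RPE, with 6 of 6 probe sets at least 2-fold below both, and Aspn, asporin, at 15.0 in IPE against 409 in CBPE and 894.6 in RPE. Bgn, biglycan, was bright everywhere at 3628 in IPE against 10204 in CBPE and 8512 in RPE. Gpc3, a cell surface proteoglycan, was at 37.0 in IPE against 647.9 in CBPE and 645 in RPE. Sdc4, a syndecan, was at 58.0 in IPE against 2508 in CBPE and 640.1 in RPE, and its probe sets disagreed. The counts for elastic fibres were 7, 9 and 7 under the 3 scalings, and those for proteoglycans 9, 9 and 8.

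Matricellular genes had 8 of 25 measured below both and 2 above. Ccn5 of the CCN family was at 123.3 in IPE against 2954 in CBPE and 1896 in RPE. Ccn3 was at 107.7 in IPE against 1472 in CBPE and 918.6 in RPE. Ccn4 was at 287.8 in IPE against 1238 in CBPE and 1089 in RPE, and all 3 of these relatives were highest in CBPE. Thbs1, the thrombospondin named by the series, was within 2-fold of RPE, at 2992 in IPE against 6419 in CBPE and 3832 in RPE. Tgfbi, a TGF-beta-induced adhesion protein, was at 73.2 in IPE against 1072 in CBPE and 502.7 in RPE. Spon1, F-spondin, ran the other way at 2292 in IPE against 28.8 in CBPE and 580.3 in RPE, with 4 of 4 probe sets at least 2-fold above both. Of 29 measured proteases and inhibitors 4 were below both. Mmp3, stromelysin-1, was at 132.7 in IPE against 6095 in CBPE and 2565 in RPE, 45.9-fold and 19.3-fold below, and Timp1, an inhibitor of such enzymes, at 1075 in IPE against 5821 in CBPE and 3424 in RPE. Ctsk, cathepsin K, was at 226.2 in IPE against 813.4 in CBPE and 1090.2 in RPE.

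Markers of connective tissue cells moved with the matrix genes. The fibroblast and mesenchymal list had 8 of 24 measured below both and 1 above, with medians of -1.03 and -0.71 and a summed signal of 50756 in IPE against 99611 in CBPE and 77104 in RPE. In IPE 3 of the 24 were under the floor and none in the others. It shares Col1a2, Col6a3, Mfap5 and Twist1 with the lists above. Its defining markers disagreed. Dpt, dermatopontin, was under the floor in IPE but 71.7 in CBPE and 222.5 in RPE. Pdgfra, the platelet-derived growth factor receptor of fibroblasts, was above both at 2020.3 in IPE against 776.6 in CBPE and 958.1 in RPE. S100a4, a calcium-binding protein of motile mesenchymal cells, was at 553.9 in IPE against 7899.6 in CBPE and 6461 in RPE. Thy1, a surface glycoprotein of fibroblasts and neurons, was at 126.7 in IPE against 546.7 in CBPE and 359.3 in RPE. The tendon list had 5 of 8 measured below both and none above, with 4 of 8 under the floor in IPE and none in the others, and a summed signal of 1180.1, 9770 and 8234. Tnmd, tenomodulin, was under the floor in IPE but 4176 in CBPE and 1972 in RPE, at least 288-fold and at least 136-fold below. Scx, the tendon transcription factor, was dim on all 3 arrays at 31.6 in IPE against 72.8 in CBPE and 40.9 in RPE. The part of these cells in the matrix differences was not tested.

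**Figure D5:**
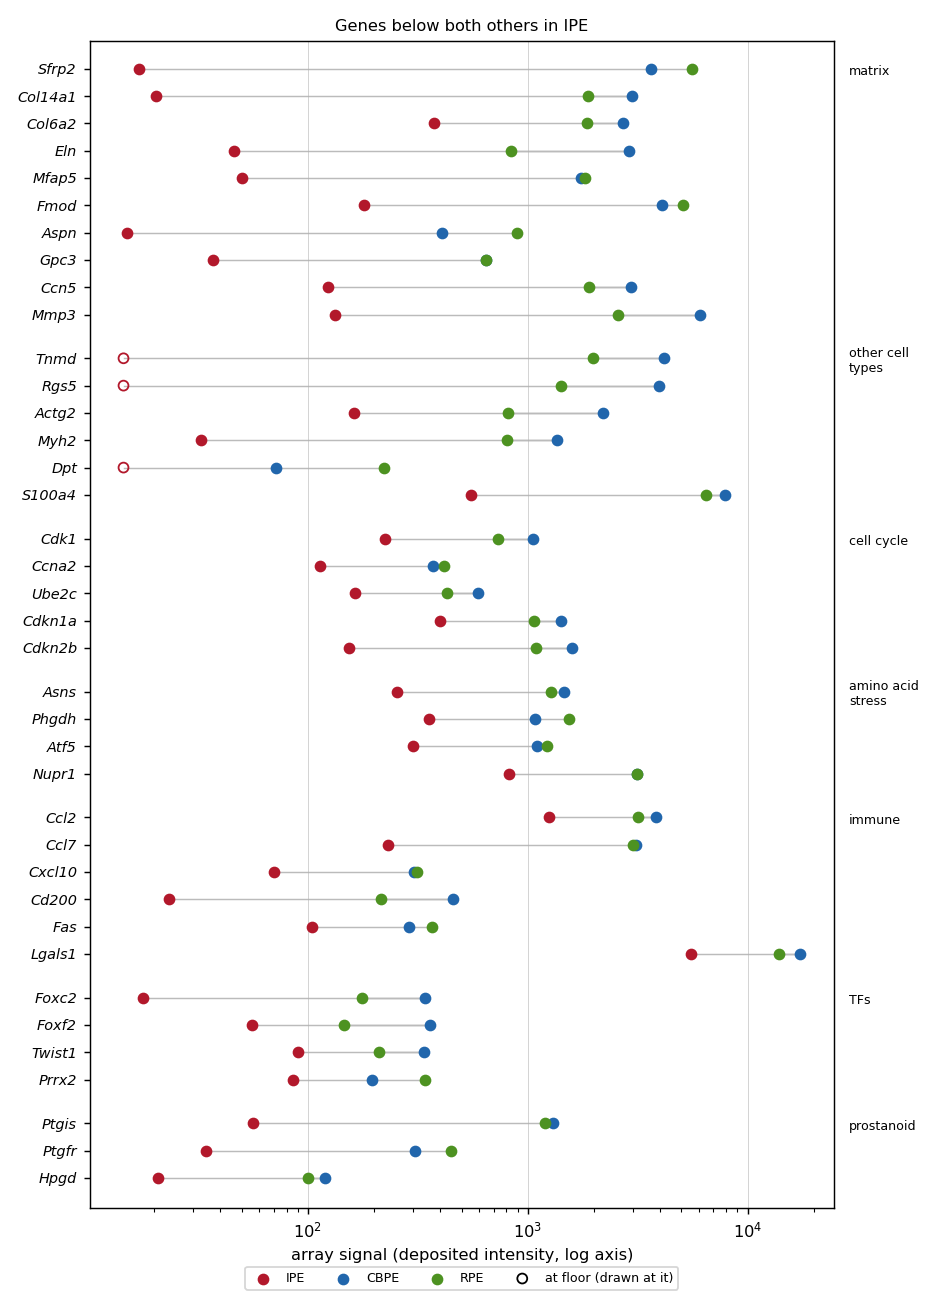
Signals of 38 genes that were below both others in IPE, on a log axis, with a point per culture joined by a line, grouped by function. Open circles are signals under the floor, drawn at it. Red IPE points lie to the left of both others in every row, and CBPE and RPE often lie close together.

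Muscle and mural cell markers were more often below both than above. Rgs5, a pericyte gene, was under the floor in IPE but 3974 in CBPE and 1416 in RPE, at least 274-fold and at least 97.6-fold below, with 4 of 4 probe sets at least 2-fold below both. Myh11, the smooth muscle myosin, was above both at 99.4 in IPE against 22.1 in CBPE and 40.0 in RPE by 1 of its 2 probe sets. Of 15 measured pericyte and smooth muscle genes 4 were below both and 2 above, 4 were under the floor in IPE, none in CBPE and 2 in RPE, and the summed signal was 13542 in IPE against 31706 in CBPE and 19893 in RPE. Actg2, an enteric smooth muscle actin, was at 162.2 in IPE against 2209 in CBPE and 816.5 in RPE. Cnn1, calponin, was at 94.4 in IPE against 267.1 in CBPE and 242.9 in RPE. Of 19 measured skeletal muscle genes 4 were below both and 1, Des, above. In IPE 15 were under the floor against 6 in CBPE and 2 in RPE, and the summed signal was 231.4, 1895.3 and 1882. Myh2, a fast myosin of eye and limb muscle, was at 32.8 in IPE against 1363 in CBPE and 808.8 in RPE, and Myh1, whose sequence is close to it, was under the floor in IPE but 57.7 in CBPE and 99.0 in RPE. The defining markers Myod1 and Ckm were under the floor on all 3 arrays. In RNA from a whole culture, fewer cells of a type and less RNA per cell cannot be told apart, and the part of muscle and mural cells was not tested.

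Most macrophage and leukocyte markers were higher in CBPE than in IPE. Of 14 measured macrophage and leukocyte genes 2 were below both in IPE, 11 were at least 2-fold below CBPE and 2 below RPE, 7 were under the floor in IPE, none in CBPE and 4 in RPE, and the summed signal was 411.7, 2815 and 624.8. Csf1r, the macrophage growth factor receptor, was under the floor in IPE but 116 in CBPE and 40.0 in RPE. Cd14, a co-receptor for endotoxin, was at 39.9 in IPE against 152.9 in CBPE and 109 in RPE. Ptprc was under the floor on all 3 arrays, and Cd68 was at 39.4 in IPE against 72.3 in CBPE and 25.5 in RPE. Of 17 measured endothelial genes 9, 1 and 10 were under the floor in IPE, CBPE and RPE, and the summed signal was 1405.2, 2372 and 784. The angiopoietin receptor gene Tek was the member below both, under the floor in IPE but 72.9 in CBPE and 52.1 in RPE. Pecam1 and Cdh5, adhesion molecules between endothelial cells, were above the floor in CBPE alone, at 54.6 and 108.3. Emcn, a sialomucin of capillaries, was at 745.1 in IPE against 1115 in CBPE and 211.2 in RPE. Eng, a TGF-beta co-receptor that other cells also carry, had its highest signal in IPE, 362.3 in IPE against 293.2 in CBPE and 240.6 in RPE. The neuron list had 1 of 11 measured above both and 2 below. Map2, a microtubule protein of dendrites, was above at 66.4 in IPE and under the floor in CBPE and RPE, by 1 of its 2 probe sets. Thy1, given above, was below both. Stmn2, a growth-cone protein, was below both at 238.8 in IPE against 2218 in CBPE and 2259.8 in RPE. Snap25 was under the floor on all 3 arrays. The sum of the 11 genes was 588, 2868 and 2777, most of it in CBPE and RPE from Stmn2, with 4, 6 and 5 under the floor. The lens and cornea list had 1 of 7 measured below both, a sum of 1156.1, 1393 and 1658, 4, 4 and 2 under the floor, and Cryaa and Krt12 under the floor on all 3 arrays.

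Cell cycle genes were below both in 17 of 41 measured and above both in none, with medians of -1.26 and -1.0. The counts were 15, 25 and 21 under the 3 scalings. Cdk1, the mitotic kinase, was at 225.3 in IPE against 1056 in CBPE and 730.9 in RPE, 4.69-fold and 3.24-fold below, and Ccna2, its S-phase cyclin, at 113.4 in IPE against 371.8 in CBPE and 416.7 in RPE. Ube2c, which helps degrade mitotic cyclins, was at 163.4 in IPE against 591.1 in CBPE and 428.4 in RPE. Mad2l1, of the spindle checkpoint, was at 120.2 in IPE against 374.9 in CBPE and 344.1 in RPE. The inhibitors of the cycle were low as well. Cdkn1a, a target of p53, was at 399.1 in IPE against 1418 in CBPE and 1074 in RPE. Cdkn1b, a brake on cyclin E kinase, was at 78.3 in IPE against 335.8 in CBPE and 244.3 in RPE. Cdkn2b, which blocks CDK4 and CDK6, had the widest gap of the list at 154.3 in IPE against 1597 in CBPE and 1093 in RPE, or 10.4-fold and 7.08-fold. Cdkn2a, its neighbour on the chromosome, was under the floor in IPE but 68.0 in CBPE and 68.6 in RPE. Of the genes of the list that were below both, 4 are thus inhibitors of the cycle, and the others include genes of division and of its checkpoint.

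Genes of the amino acid and endoplasmic reticulum stress response were below both in 13 of 33 measured and above both in 1, with medians of -0.73 and -0.76, and the counts below were 12, 14 and 13 under the 3 scalings. Asns, asparagine synthetase, was at 253.4 in IPE against 1458 in CBPE and 1272 in RPE, 5.75-fold and 5.02-fold below. Phgdh, the entry enzyme of serine synthesis, was at 355.1 in IPE against 1084 in CBPE and 1548 in RPE. Psat1, its next step, was at 147.9 in IPE against 683.3 in CBPE and 678 in RPE. Psph, the last step, was at 84.2 in IPE against 489.7 in CBPE and 383.2 in RPE. All 3 steps were lowest in IPE. Gars, glycyl-tRNA synthetase, was at 423 in IPE against 1519 in CBPE and 1356 in RPE. The response regulators were low too. Atf5, a transcription factor, was at 301.8 in IPE against 1103 in CBPE and 1222 in RPE. Ddit3, the CHOP gene, was at 190.7 in IPE against 477.3 in CBPE and 592.8 in RPE. Trib3, a pseudokinase that it induces, was at 39.3 in IPE against 229.2 in CBPE and 179.9 in RPE. Nupr1, a stress-induced chromatin factor, was at 823.8 in IPE against 3146 in CBPE and 3145 in RPE. Chac1, which degrades glutathione, was at 18.9 in IPE against 320.5 in CBPE and 196.4 in RPE. Herpud1, a reticulum stress gene, was at 295.8 in IPE against 798.1 in CBPE and 621.5 in RPE. The exception, Vldlr, stands in the lipid list too.

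The letters TGATGNAA, a form of the amino acid response element that ATF4 dimers can bind, were searched in the same windows on both strands. Of the 13 genes 12 had a window, and 6 of these held a match, as did 4.5% of 27025 genes with a window. The list was gathered as genes of this response, so matches were likely in advance, and the count is no result of these arrays. The windows of 3 of the 6 are printed with the match, on either strand, in capitals. It began 23 bases before the start in Asns (chr6:7693160-7693459, minus strand), 193 before in Chac1 (chr2:119350992-119351291, plus strand) and 110 before in Nupr1 (chr7:126625421-126625720, minus strand). CCAAT, a common promoter letter string, was searched in the same way. It was in 8 of 14 cell cycle genes below both with a window, 8 of 12 amino acid stress genes below both, 5 of 7 melanin synthesis genes above both and 41.1% of genes.
Asns: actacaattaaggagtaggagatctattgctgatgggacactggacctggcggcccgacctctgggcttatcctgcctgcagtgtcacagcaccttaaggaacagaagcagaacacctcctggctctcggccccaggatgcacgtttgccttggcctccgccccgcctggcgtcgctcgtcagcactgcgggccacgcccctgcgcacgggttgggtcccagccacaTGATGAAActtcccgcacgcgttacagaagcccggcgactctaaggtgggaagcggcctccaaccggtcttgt
Chac1: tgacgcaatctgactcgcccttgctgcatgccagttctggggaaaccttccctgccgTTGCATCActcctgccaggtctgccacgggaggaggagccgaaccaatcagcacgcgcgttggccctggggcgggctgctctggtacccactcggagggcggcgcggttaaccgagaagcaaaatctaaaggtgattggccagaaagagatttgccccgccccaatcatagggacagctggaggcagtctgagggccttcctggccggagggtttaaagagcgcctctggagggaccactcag
Nupr1: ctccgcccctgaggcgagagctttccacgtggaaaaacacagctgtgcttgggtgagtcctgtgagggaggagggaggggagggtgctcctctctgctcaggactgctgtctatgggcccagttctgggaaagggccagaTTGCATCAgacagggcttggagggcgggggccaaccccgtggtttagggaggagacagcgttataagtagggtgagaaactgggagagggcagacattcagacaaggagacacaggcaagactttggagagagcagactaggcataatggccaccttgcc

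Subunits of the respiratory chain and of the cytosolic ribosome were low as deposited, but these were the lists that turned most with the scaling. Of 34 measured respiratory chain genes 8 were below both and none above, with medians of -0.58 and -0.59, and the counts were 1, 16 and 2 under the 3 scalings. Ndufa4, a subunit of cytochrome oxidase, was the member that kept its place under all 3, at 1488 in IPE against 6454 in CBPE and 5238 in RPE. Cox7a2, of the same complex, was at 3365 in IPE against 11122 in CBPE and 7685 in RPE. Cox6c was at 3644 in IPE against 10159.8 in CBPE and 7543 in RPE. Of 27 measured ribosomal protein genes 7 were below both, with medians of -1.21 and -0.88, and the counts were 1, 19 and 3. Rpl35, of the large subunit, was at 4932 in IPE against 12608 in CBPE and 11194 in RPE. Rpl19 was at 3925 in IPE against 9609.9 in CBPE and 8663 in RPE. After quantile normalization the ribosomal medians were -0.12 and -0.14. The members named here are bright. Of all genes over a signal of 1000, 17.94% were below both as deposited, and 11.76%, 30.84% and 11.83% under the 3 scalings. The part of brightness in the counts of both lists was not tested. These genes have processed copies that probe sets may share. Without the shared probe sets 6 of 22 measured ribosomal protein genes were below both, with medians of -1.03 and -0.84. Rps24 then lost its direction against CBPE, at a log2 difference of 0.09. That value came from a much dimmer probe set, at 94.3 in IPE against 88.8 in CBPE and 104.2 in RPE, so it says little about shared copies.

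Immune molecules, which the question of the series concerns, included more chemokines and T cell ligands below both than above. Of 24 measured chemokines 6 were below both and 1 above, with medians of -0.90 and -0.66, and the counts below were 6, 7 and 6 under the 3 scalings. Ccl2, which draws monocytes, was at 1248 in IPE against 3851 in CBPE and 3175 in RPE. Ccl7, of like function, had a wider gap, at 232.7 in IPE against 3106 in CBPE and 2999 in RPE, 13.3-fold and 12.9-fold below. Cxcl10, an interferon-induced attractant of T cells, was at 70.2 in IPE against 302.6 in CBPE and 314 in RPE. Cxcl9, its relative, was under the floor in IPE but 170.1 in CBPE and 48.5 in RPE. Of 23 measured T cell ligands and inhibitory molecules 6 were below both and 1 above. Cd200, an inhibitory ligand for myeloid cells, was at 23.3 in IPE against 457.1 in CBPE and 214.7 in RPE, 19.6-fold and 9.21-fold below, and Fas, the death receptor, at 104.2 in IPE against 287.4 in CBPE and 368.2 in RPE. Galectins, which bind sugars on T cells, went opposite ways. Lgals1 was at 5554 in IPE against 17396 in CBPE and 13849 in RPE. Lgals9 was above both at 1054 in IPE against 476.4 in CBPE and 468.4 in RPE. Vcam1, an adhesion ligand of leukocytes, was at 534 in IPE against 1318 in CBPE and 1813 in RPE. The complement regulator gene Cd55 was under the floor in IPE but 37.0 in CBPE and 62.7 in RPE, below both. Cd59a, which blocks the lytic complex, was below both at 299.7 in IPE against 777.6 in CBPE and 1004 in RPE. The component C2 was above both at 801.5 in IPE against 172.1 in CBPE and 186.5 in RPE. Masp1, a protease of the lectin pathway, was above both at 1029.5 in IPE against 263.6 in CBPE and 232.2 in RPE. The leukocyte sums given above were also lowest in IPE, and their part was not tested.

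Antigen presentation genes had 1 of 19 measured below both and none above, near the 6.11% of all genes that were below. The member below both was Psmb9, a subunit of the immunoproteasome, at 29.0 in IPE against 69.6 in CBPE and 97.3 in RPE. B2m, the light chain of class I molecules, was at 3721 in IPE against 8062 in CBPE and 4916 in RPE, and after quantile normalization its log2 difference against CBPE turned to 0.11. H2-K1, a class I heavy chain, was at 1857 in IPE against 5488 in CBPE and 1752 in RPE. Of 28 measured interferon-stimulated genes 2 were above and 2 below, near the shares of all genes, 6.39% and 6.11%. Ifitm1, which restricts viral entry, was above both at 3029 in IPE against 1159.9 in CBPE and 908.7 in RPE. Ifi35 was below both at 882.6 in IPE against 2246 in CBPE and 1787 in RPE.

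Prostanoid genes were split between synthesis of different products. Ptgis, which makes prostacyclin, was at 56.1 in IPE against 1307 in CBPE and 1196 in RPE, 23.3-fold and 21.3-fold below. Ptgs2, the inducible cyclooxygenase, was above both at 400.8 in IPE against 196.5 in CBPE and 106.8 in RPE, as was Ptgds, described with the visual cycle. The receptor gene Ptgfr for prostaglandin F was at 34.5 in IPE against 307.2 in CBPE and 445.7 in RPE. Hpgd, which inactivates prostaglandins, was at 20.9 in IPE against 119.8 in CBPE and 100.1 in RPE. Of 18 measured 2 were above and 3 below. Immediate early factors had 2 of 23 measured above both and 3 below, where all genes had 6.39% and 6.11%. Egr3, a zinc finger factor, was at 124 in IPE against 38.3 in CBPE and 25.3 in RPE. Myc, a growth regulator, was at 105.5 in IPE against 43.5 in CBPE and 31.3 in RPE. Klf2, a factor that shear stress induces in endothelium, was below both at 19.9 in IPE against 181.4 in CBPE and 87.2 in RPE.

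Several of the largest differences fell outside the lists. A2m, a broad protease inhibitor, was above both at 2679 in IPE against 285.4 in CBPE and 210.0 in RPE. The GTPase regulator gene Arhgap20 was at 973.2 in IPE against 74.9 in CBPE and 55.4 in RPE. The scaffold gene Mpp6 was at 1248 in IPE against 130.6 in CBPE and 124.6 in RPE. The actin regulator gene Cyfip2 was at 190.0 in IPE against 22.8 in CBPE and 19.8 in RPE. Of 76 genes above both that were at the floor in both other cultures, the brightest in IPE were Tnfrsf19, a receptor of the TNF family, at 305.9, Zic1 at 285.2, Prune2 at 213.9, Oca2 at 127.5, Scel, a protein of the cornified envelope, at 123.3, and Lcorl at 115. Agtr2, the type 2 angiotensin receptor, was below both at 67.8 in IPE against 2074 in CBPE and 1644 in RPE. Gask1b was below both at 38.4 in IPE against 1505 in CBPE and 866.3 in RPE. Of 121 genes below both that were at the floor in IPE, the brightest after Tnmd and Rgs5 were Hnrnpl, a splicing factor, at 591.7 in CBPE and 508 in RPE, and Plppr4 at 480.0 and 376.2. Rian, an imprinted noncoding RNA, was at 366.2 and 672.1, and Bcat1, a branched-chain aminotransferase, at 365.2 and 304. Hnrnpl rests on 1 probe set.

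Where a gene had several probe sets, they gave the closest thing to a repeat. Of 853 genes above both, 513 had at least 2 usable probe sets, which all shared the direction in 323 and all passed 2-fold in 149. Of 815 below both, 371 had at least 2, with 274 and 86. Among genes with signals over 100 on both arrays, probe sets of 1 gene differed with a pooled SD of 0.495 in the log2 difference against CBPE over 1666 genes and 0.455 against RPE over 1773, which leaves out the spread between cultures. A 2-fold difference is 1 on this scale, so a gene within that spread of the limit could lie on either side of it by another of its probe sets. Some probe sets, a part of them near the floors, went against the chosen direction in Gstm1, Igf1, Itgb1, Klf9, Lcorl, Lyst, Nr2f2, Pappa, Prune2, Rpl35, Slc4a4 and Vldlr, beside the genes already noted. Single probe sets were looked at for the genes named by rule and not for the other list members named. Of those others, Axin2, Cdkn1b, Cgn, Ddit3, Epcam, Epha3, Meis1, Meis2 and Tbx3 lost their place with the mean of all probe sets. In 1 gene the call was above CBPE and below RPE, and none was the reverse.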

How the data were processed

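RNA from 3 primary cultures was labelled with biotin and hybridised to 1 Affymetrix mouse array each, per the labels. The authors deposited 1 intensity per probe set and array on a linear scale, whose 2% trimmed mean was 100.001 on each array. The software and summary method behind them: not given in the sources used here. Of 45101 probe sets, 64 were controls, 34958 had 1 gene in the platform annotation, 932 had several and 9160 were not listed there, and only those with 1 gene were used, which gave 18193 genes.

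The floor of an array was the 50th percentile of its non-control signals (IPE 14.5, CBPE 17.3, RPE 16.8). Lower signals were raised to this level and log2 values followed. The probe set with the highest mean log2 value stood for its gene, and a gene was measured when it was above the floor on at least 1 array (13345 genes). A fold whose dim side lay under the higher of the floor and the brightest of 27 absent bacterial controls (14.5, 20.2 and 16.8) is given as "at least". With 1 array per culture no model, p-value or error across cultures could be computed, and the number of arrays limits the precision.

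Genes were named by rule: per direction, the 12 with the largest smaller difference that exceeded all 3 floors and had agreeing probe sets, 6 in each direction at the floor on the other side, up to 6 per list by signal, the given markers, and those nearest the 2-fold limit. Other list members were named after their values were seen. The members and lists were chosen with earlier results of these data known. Clone and predicted names (13 above, 28 below) were counted and not named. Alternatives were a 60th percentile floor, a fixed floor of 100, equal medians, quantile normalization, the mean of all probe sets, leaving out shared probe sets, and, chosen after seeing the data, equal medians over probe sets above all floors. The calculation was tested on simulated data. Promoter windows came from RefSeq, GRCm38.p6. Python 3.11.15, numpy 2.4.6, pandas 2.3.3, scipy 1.17.1 and matplotlib 3.10.9 were used.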

Additional observations from a re-analysis of the deposited data

How the results depend on the processing

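The counts moved with the scaling and with the floor. With a fixed floor of 100, which left 7753 genes measured, 444 were above both and 451 below both, against CBPE 770 were above and 741 below, and against RPE 603 and 633. With equal medians over all probe sets 1343 were above both and 507 below both, with 945 below CBPE and 782 below RPE. With equal medians over probe sets above all floors, chosen after seeing the data, 449 were above both and 1424 below both, with 904 above and 2770 below CBPE and 791 above and 2028 below RPE. The 60th percentile floor, quantile normalization, the mean of all probe sets and leaving out shared probe sets kept these counts within 1.5 times. Of the 853 genes 173 stayed above both under all 7 alternatives, and 210 of the 815 stayed below both. Among differences of named genes that were at least 2-fold as deposited, 3 changed sign in some alternative: B2m against CBPE to 0.109 after quantile normalization, Igf1r to -0.057 with the mean of all probe sets and Rps24 to 0.087 without shared probe sets. For Rps24 a much dimmer probe set then stood for the gene. The cause was not tested. Differences near 0 can change sign with the common shift of a scaling, as that of Tgfbr2 against CBPE did. Some list counts moved by over 1.5 times. A fixed floor of 100 took those below both from 17 to 10 for cell cycle genes, from 5 to 2 for tendon and from 6 to 3 for chemokines, and those above both from 7 to 2 for Wnt genes and from 10 to 6 for guidance genes. The mean of all probe sets took guidance genes from 10 to 6 above both. Signals near the floor bound any fold taken against them, and a single array per culture leaves the spread between cultures unmeasured. No paired analysis was possible because each group held 1 array.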

Other observations

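Probe sets without a listed gene held differences of the same size. Of 3852 such probe sets above a floor on some array, 162 were at least 2-fold above both others in IPE and 160 below both. The probe set 1417502_at was at 798.2 in IPE against 58.3 in CBPE and 89 in RPE. The probe set 1448194_a_at was at 139.4 in IPE against 2134 in CBPE and 2257 in RPE. Neither can be tied to a gene here.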
